A study of Mus musculus with 6 samples.

Results

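The genes described here are 40 genes of the cell division cycle, read in olfactory epithelium, where the dividing cells lie at the base of the tissue. They were chosen by name for their roles in the cycle and cover G1 cyclins, DNA replication, entry into mitosis, the chromosomal passenger complex and spindle checkpoint, the kinetochore and spindle, and the proliferation markers Mki67 and Top2a. Of the 40, 39 had a probe set whose annotation names that gene and no other, among 18193 such genes on the array. Ccnb1, cyclin B1, had no such probe set in the annotation used. A test could be made for 37 of them, among 11426 genes tested in all, and Ccne1 and Tyms were too dim to be tested.

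RNA of olfactory epithelium was hybridised to Affymetrix mouse 430 2.0 arrays, 3 from mice homozygous and 3 from mice heterozygous for OMP-GFP. Every sample therefore carried the OMP-GFP allele, and no array of wild-type tissue was analysed here. In this line, as background, green fluorescent protein takes the place of the coding sequence of Omp, the gene of olfactory marker protein, which mature olfactory neurons make. Homozygous mice thus lack the protein and have more copies of GFP than heterozygous mice, and the effects of the protein and of GFP cannot be told apart. The study asked how olfactory marker protein affects gene expression in this tissue. The sources used here do not give strain, age, sex or whether an RNA came from 1 animal or a pool. The p-values therefore reflect only how far these samples spread, which may be technical.

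Olfactory neurons are replaced throughout life. Globose basal cells divide and give rise to immature neurons, while horizontal basal cells divide rarely in the intact tissue and act as a reserve. Cyclins bind and switch on cyclin-dependent kinases: D and E cyclins carry a cell through G1, the Mcm helicase and Pcna act in DNA replication, and cyclins A and B with Cdk1 drive mitosis. Transcription of many of these genes is tied to the cycle through E2F factors at G1/S genes and through CHR elements, often with CCAAT boxes, at mitotic genes. Omp itself is made by mature neurons, which have left the cycle.

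The promoters of the members are shown first, because shared promoter elements are a property of these genes that their choice by name did not use. RefSeq promoter windows (GRCm38.p6, 250 bases before to 50 after the transcription start) were found for 31 of the 40 members by symbol, and for 9 they were not: Foxm1, Aurkb, Kif20a, Ccna2, Ccne2, Ccnd1, Ccnd2, Tpx2 and Mcm4. Each window was searched on both strands for 3 kinds of letters. CHR letters were TTTGAA and, as a known variant, TTCGAA. The second kind was CCAAT. E2F letters were TTCCCGC and also TTGGCGC, and on opposite strands this kind can share bases with CCAAT. Of the 5 windows printed here, 4 belong to mitotic genes described below by array (Bub1b, Cdk1, Mki67, Cdca8) and Mcm3, a replication gene, is set beside them as the contrast. They lie at chr2:118597961-118598260 on the plus strand for Bub1b, chr10:69352863-69353162 on the minus strand for Cdk1, chr7:135716330-135716629 on the minus strand for Mki67, chr4:124936868-124937167 on the minus strand for Cdca8 and chr1:20820263-20820562 on the minus strand for Mcm3. Each is written 5′ to 3′ in the direction of transcription, and capitals mark the matches to CHR, CCAAT and E2F letters on either strand.
Bub1b: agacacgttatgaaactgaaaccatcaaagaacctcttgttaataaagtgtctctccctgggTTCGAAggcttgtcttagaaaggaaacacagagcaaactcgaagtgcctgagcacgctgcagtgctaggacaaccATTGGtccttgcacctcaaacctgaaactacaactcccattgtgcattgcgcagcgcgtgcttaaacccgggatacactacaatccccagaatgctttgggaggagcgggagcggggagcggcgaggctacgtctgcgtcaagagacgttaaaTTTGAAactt
Cdk1: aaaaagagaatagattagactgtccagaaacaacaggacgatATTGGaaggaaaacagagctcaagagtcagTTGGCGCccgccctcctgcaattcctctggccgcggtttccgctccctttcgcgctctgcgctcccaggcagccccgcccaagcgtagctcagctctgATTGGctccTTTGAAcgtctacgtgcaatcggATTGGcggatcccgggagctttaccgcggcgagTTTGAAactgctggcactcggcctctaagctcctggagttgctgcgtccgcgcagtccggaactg
Mki67: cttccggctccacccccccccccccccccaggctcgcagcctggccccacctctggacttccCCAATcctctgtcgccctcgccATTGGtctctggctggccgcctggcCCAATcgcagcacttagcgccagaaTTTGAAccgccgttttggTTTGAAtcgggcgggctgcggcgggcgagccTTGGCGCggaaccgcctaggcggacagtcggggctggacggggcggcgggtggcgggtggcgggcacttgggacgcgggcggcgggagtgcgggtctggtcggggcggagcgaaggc
Cdca8: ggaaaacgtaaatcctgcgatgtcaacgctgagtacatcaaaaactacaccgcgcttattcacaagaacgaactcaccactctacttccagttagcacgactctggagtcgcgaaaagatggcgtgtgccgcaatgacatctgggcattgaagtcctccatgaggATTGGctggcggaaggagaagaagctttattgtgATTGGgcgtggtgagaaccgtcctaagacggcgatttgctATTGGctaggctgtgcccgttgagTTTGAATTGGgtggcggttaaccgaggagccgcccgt
Mcm3: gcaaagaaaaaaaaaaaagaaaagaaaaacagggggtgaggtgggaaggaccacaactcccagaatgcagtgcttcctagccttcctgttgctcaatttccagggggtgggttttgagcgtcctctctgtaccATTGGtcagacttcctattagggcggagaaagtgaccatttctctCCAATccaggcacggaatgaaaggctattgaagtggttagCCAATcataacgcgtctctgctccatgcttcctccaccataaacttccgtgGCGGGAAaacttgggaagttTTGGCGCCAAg

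In the Cdk1 window, CHR letters start 71 and 15 bases before the transcription start, with CCAAT letters on the minus strand 80 and 48 bases before it. In the Mki67 window CHR letters start 116 and 98 bases before the start. The Mcm3 window holds no CHR letters, but 3 matches to E2F letters, of which 2 overlap on opposite strands, and 3 to CCAAT. CHR letters were found in 18 of the 31 members' promoters (58.1%), against 16.2% of the 9261 promoters found for all genes tested and 21.7% of all 27025 genes in the promoter table. CCAAT was found in 26 of 31 (83.9%), against 42.9% and 41.1%, and E2F letters in 8 of 31 (25.8%), against 14.3% and 7.79%. Among the 20 mitotic genes, taken with Mki67 and Top2a, 16 promoters (80%) held CHR letters and 3 (15%) E2F letters. Among the 11 G1 and replication genes, 2 (18.2%) held CHR letters and 5 (45.5%) E2F letters. A match to these letters is a description of the window and does not show a bound site.

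Levels of these genes were like those of other genes in how far they differed between the groups. With limma, 0 of 37 members passed an adjusted p of 0.05, where the background was 0% of 11426 genes, and the members' adjusted p lay between 0.951 and 0.9998. The alternative with a plain pooled-variance test also passed 0. At an unadjusted limma p under 0.05, 1 member, Bub1b, was higher in homozygous arrays and 0 were lower, against backgrounds of 2.6% of genes higher and 2.56% lower (5.16% in either direction). A share of 1 in 37 is near that background. On the log2 scale of signal plus an offset of 38.8, which understates differences of dim probe sets, 23 of the 37 members lay higher and 14 lower in homozygous arrays, where 49.8% of all genes tested lay higher. Their median difference was 0.04, against -0.0004 over all genes tested.

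The size of the differences was bounded on this scale, which understates those of dim members. For 34 of the 37 members the log2 difference was under 0.2 in size, as it was for 89% of all genes tested; the others were Bub1b, Aurkb and Cenpe. The 95% confidence interval lay wholly within a 1.5-fold change in either direction for 35 members, against 94.5% of all genes tested. Bub1b and Cenpe were the exceptions, with intervals of 0.0069 to 0.66 and -0.40 to 0.81. Bulk RNA cannot tell fewer cells of a type apart from less RNA per cell, so these values describe the members' RNA in the tissue and not the number of dividing cells.

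**Figure D1:**
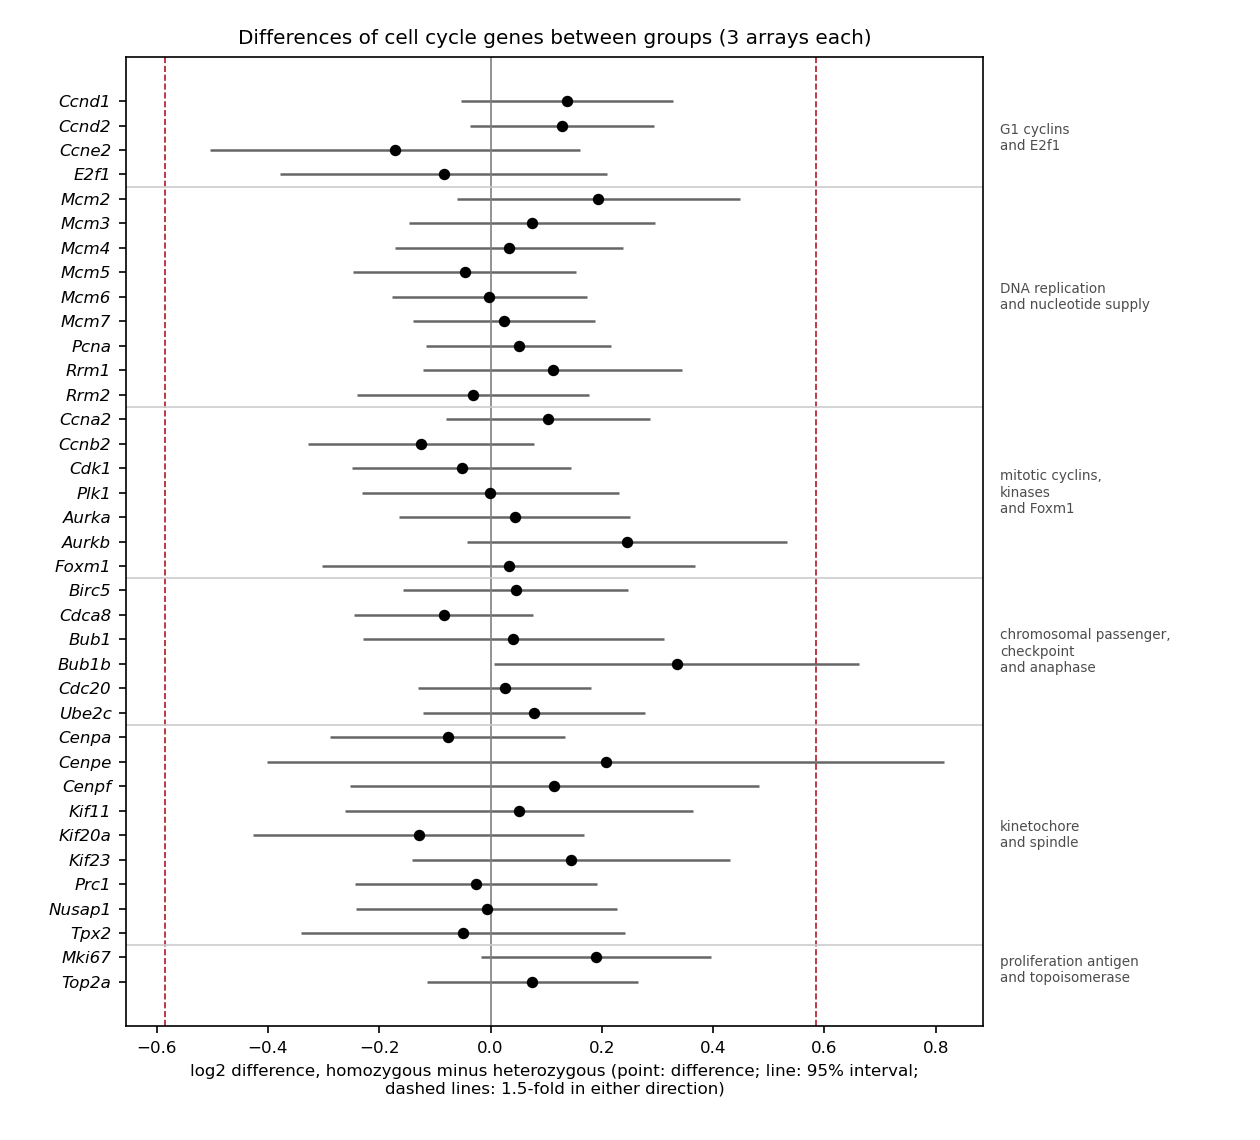
Log2 difference in MAS5 signal plus offset (homozygous minus heterozygous, 3 arrays each) for each tested member, grouped by role, with 95% confidence intervals from limma. Of the 37 intervals, 35 stay within a 1.5-fold change, and that of Bub1b alone lies wholly above 0.

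The G1 genes come first in the cycle. Ccnd1, cyclin D1, which links growth signals to the cell cycle, read 3531.2, 3048.2 and 3410.9 in homozygous 1, 2 and 3 and 3343.8, 2946.7 and 2791.4 in heterozygous 1, 2 and 3. Homozygous 1 was highest and heterozygous 3 lowest, and the groups overlapped. The log2 difference was 0.14 ± 0.09 (SE, n = 3 each), with a limma adjusted p of 0.951. Its 2 other probe sets leaned the other way, at -0.08 and -0.09, and the average of all its probe sets was -0.01.

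Ccnd2, cyclin D2, read 1940.5, 2062.7 and 1825.8 in homozygous and 1802.9, 1797.2 and 1716.1 in heterozygous arrays. Every homozygous array lay above every heterozygous one, by a narrow margin between homozygous 3 and heterozygous 1. The log2 difference was 0.13 ± 0.08 (SE, n = 3 each), with a limma adjusted p of 0.951. A second Ccnd2 probe set also did not overlap, at 1389.5 to 1502.1 against 1347.5 to 1361.1, and of the other 3 tested, 2 lay higher (0.11 each) and 1 lower (-0.02), with overlap. Groups without overlap were found for 2 of the 37 members, 1 higher and 1 lower, against 4.82% of all genes higher and 5.51% lower (10.3% in all).

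The remaining G1 members were nearer to 0 or more scattered. Ccne2, an E cyclin that acts with Cdk2 at entry into S phase, had the lowest difference of any member, at -0.17 ± 0.15 (SE), with 150.1 to 179.1 in homozygous and 164.8 to 224.0 in heterozygous arrays. E2f1, the transcription factor of G1/S genes, differed by -0.08, with 247.8 to 313.3 against 260.3 to 333.6. Ccne1, its level below the filter at a signal of about 154.6, ranged from 107.8 to 152.8 in homozygous and 114.9 to 180.0 in heterozygous arrays and was not tested. The 4 tested G1 genes were divided, 2 higher and 2 lower, with a median of 0.02.

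Replication genes differed little. Pcna, the sliding clamp of DNA polymerase, read 8583.1, 7838.9 and 7663.5 in homozygous and 7842, 8389.1 and 7054 in heterozygous arrays. Its highest array was homozygous 1 and its lowest heterozygous 3, with the groups intermixed, and the log2 difference was 0.05 ± 0.08 (SE, n = 3 each; limma adjusted p = 0.977). The 6 Mcm genes, whose products form the replicative helicase, differed by between -0.05 (Mcm5) and 0.19 (Mcm2). Mcm2 read 1013.7, 868.6 and 1109.5 against 789.1, 811 and 1003.7, so that only heterozygous 3 reached the homozygous range. A second Mcm2 probe set gave -0.02, and the groups overlapped there as well. Without heterozygous 3 the Mcm2 difference was 0.30, with an unadjusted limma p of 0.0169 and an adjusted p of 0.606. Without homozygous 3 it was 0.08, but there the second probe set had the highest mean and was the one used.

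Rrm1 and Rrm2 encode the subunits of ribonucleotide reductase, which makes the building blocks of DNA. Rrm1 lay at 1385.8 to 1730.4 in homozygous and 1234.7 to 1511.0 in heterozygous arrays, and Rrm2 at 1573.3 to 1955.8 and 1640.4 to 1840.7. Tyms, thymidylate synthase, was at 73.8 to 97.8 and 74.1 to 119.3, under the filter. The intervals of all 9 replication genes tested stayed within a 1.5-fold change, with 6 higher, 3 lower and a median of 0.03.

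Cdk1, the kinase that drives mitosis, read 1453.5, 1299.8 and 1353.6 in homozygous and 1406.2, 1568.2 and 1295.5 in heterozygous arrays. Heterozygous 2 was highest and heterozygous 3 lowest, so the homozygous arrays lay inside the heterozygous range, and the log2 difference was -0.05 ± 0.09 (SE, n = 3 each; limma adjusted p = 0.979). Its partner cyclins leaned in opposite directions: Ccna2 by 0.10 at each of its 2 probe sets and Ccnb2 by -0.12. Ccnb2 was lowest in homozygous 2, at 804.3, and spanned 957.5 to 997.0 in heterozygous arrays, while its highest value, 998, was in homozygous 1.

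Among the mitotic kinases, Plk1, which acts from mitotic entry to cytokinesis, read 403.6 to 482.6 in homozygous and 407.7 to 461.1 in heterozygous arrays, and Aurka, a kinase of the centrosome and spindle, differed by 0.04. Aurkb, the kinase of the chromosomal passenger complex, read 364.1, 390.9 and 280.3 in homozygous and 291.5, 275.2 and 280.9 in heterozygous arrays. Homozygous 1 and 2 stood above the rest and homozygous 3 lay among the heterozygous arrays, giving a difference of 0.25 ± 0.13 (SE). A second Aurkb probe set gave -0.08, and without homozygous 3 the difference was 0.37, with an unadjusted limma p of 0.0138 and an adjusted p of 0.988. Foxm1, the transcription factor of mitotic genes, read 154.1 to 156.7 in heterozygous arrays and 144.9 to 191.2 in homozygous ones, with the highest value in homozygous 1. The 7 genes had a median difference of 0.03, with 4 higher and 3 lower.

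Bub1b encodes BubR1, a kinase-like protein of the spindle checkpoint, which delays chromosome separation until kinetochores are attached. It read 480.2, 438.9 and 377.8 in homozygous 1, 2 and 3, and 271.3, 420.7 and 322.6 in heterozygous 1, 2 and 3. Homozygous 1 and 2 exceeded every heterozygous array, but homozygous 3 lay below heterozygous 2, so the groups overlapped. The log2 difference was 0.33 ± 0.15 (SE, n = 3 each), the largest among the members, with an unadjusted limma p of 0.0461 and an adjusted p of 0.951. A second Bub1b probe set differed by 0.14, with 238.4 to 346.9 against 244.0 to 296.4. Without the library labelled heterozygous 1, which had the lowest value, the difference was 0.20 with an unadjusted limma p of 0.186, and without homozygous 1 it was 0.26 with 0.155.

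Cdca8, borealin, a subunit of the chromosomal passenger complex, leaned the other way. It read 1405.4, 1351.3 and 1353.4 in homozygous and 1505.9, 1413.1 and 1446 in heterozygous arrays. All heterozygous arrays lay above all homozygous ones, separated by a small gap between homozygous 1 and heterozygous 2. The difference was -0.08 ± 0.07 (SE, n = 3 each; limma adjusted p = 0.951), and 2 other probe sets of the gene gave 0.13 and 0.14. With the mean of all its probe sets it was 0.06, so no direction could be given for this gene.

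Birc5, survivin, of the same complex, lay at 939.8 to 958.0 in heterozygous and 901.9 to 1110.2 in homozygous arrays, with homozygous 1 highest. Cdc20, which activates the anaphase-promoting complex, differed by 0.03 and Ube2c, an enzyme that works with that complex, by 0.08. Bub1, a checkpoint kinase, ranged from 268.1 to 315.7 against 249.7 to 311.3. Of the 6 passenger, checkpoint and anaphase genes, 5 lay higher and 1 lower, with a median of 0.04.

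Kinetochore and spindle genes varied most between arrays of the same group. Their median standard error was 0.13, against 0.10 over all genes tested. Cenpe, a kinetochore motor, read 241.7, 268.9 and 94.1 in homozygous and 144.2, 139.8 and 189.6 in heterozygous arrays, so that homozygous 3 was lowest of all and homozygous 1 and 2 the highest. Its difference was 0.21 ± 0.28 (SE), and without homozygous 3 it was 0.59, with an unadjusted limma p of 0.00695 and an adjusted p of 0.988. A dimmer second probe set, under the filter, read 29.9, 67.9 and 121.2 against 76.3, 67 and 105.3, with homozygous 3 highest there.

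Cenpf, a kinetochore protein of late cycle, read 479.6, 640.8 and 564.3 in homozygous and 431.6, 444.3 and 697.6 in heterozygous arrays. Heterozygous 3 was the highest array and heterozygous 1 and 2 the lowest, and the difference of 0.11 ± 0.17 (SE) became 0.32 when heterozygous 3 was left out and 0.0006 when the library labelled heterozygous 1 was. The same array was the highest for Cenpa, the centromeric histone, at 957 against 747.0 to 864.6 in the other 5. It was also highest for Kif11, a motor that pushes spindle poles apart, at 367.1, and for Prc1, which bundles spindle microtubules, at 833.4. Nusap1, which binds spindle microtubules, was highest there too, at 880.6. Other tested Kif11 probe sets were highest there as well, at 310 and 305.7. A second tested Prc1 probe set was instead highest in the library labelled heterozygous 1, at 626.8 against 532.5 in heterozygous 3. A dim untested Nusap1 probe set was highest in heterozygous 2, at 108.2. Kif23 and Kif20a, motors of cytokinesis, differed by 0.14 and -0.13, and Tpx2, an activator of Aurora A, by -0.05. The 9 genes were 4 higher and 5 lower, with a median of -0.01. Leaving out heterozygous 3 gave a median of 0.08, and leaving out the library labelled heterozygous 1 gave -0.10.

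Mki67 encodes the Ki-67 antigen, the common marker of cycling cells. It read 1451.8, 1517.7 and 1467.7 in homozygous and 1132.7, 1308.6 and 1453.9 in heterozygous arrays. The homozygous arrays were close together, and heterozygous 3 lay within their range while the other 2 heterozygous arrays lay below it. The difference was 0.19 ± 0.09 (SE, n = 3 each), with an unadjusted limma p of 0.0692 and an adjusted p of 0.951. Leaving out heterozygous 3 gave 0.27 (limma adjusted p = 0.606), and leaving out the library labelled heterozygous 1 gave 0.10 (limma adjusted p = 0.869).

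Top2a, the topoisomerase that untangles replicated chromosomes, read 1780, 1838.1 and 1629.5 in homozygous and 1565.7, 1584.6 and 1830.9 in heterozygous arrays. Heterozygous 1 and 2 were lowest, as for Mki67, and heterozygous 3 lay between homozygous 1 and 2. The difference was 0.08 ± 0.09 (SE, n = 3 each; limma adjusted p = 0.962), and a second tested probe set gave -0.04.

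**Figure D2:**
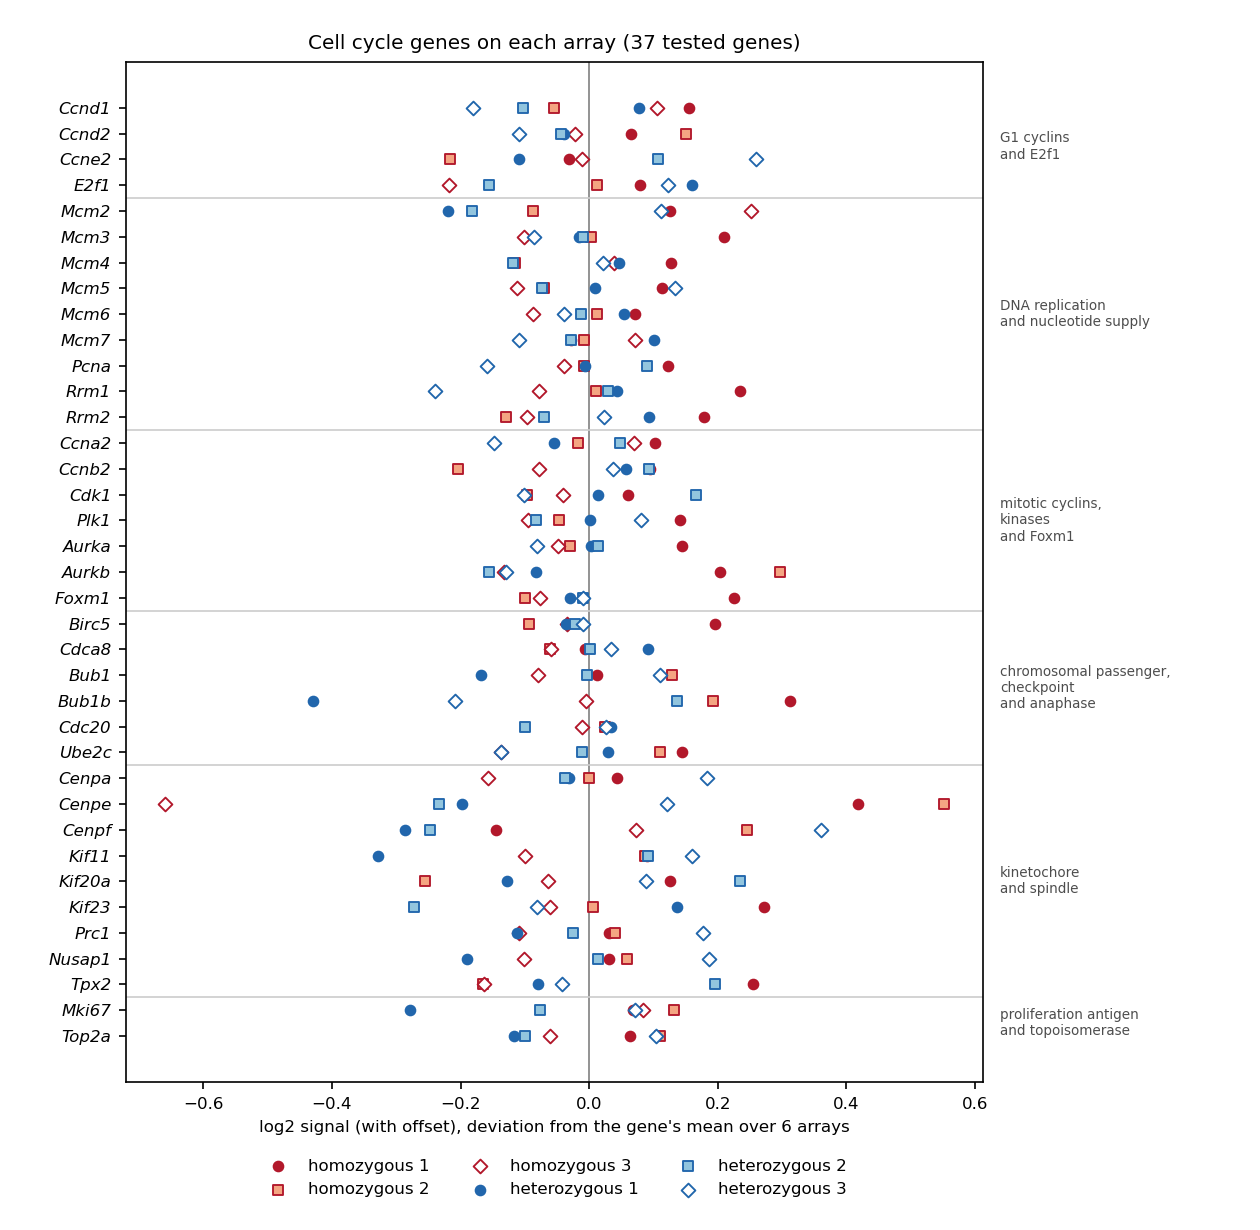
Deviation of each array from the gene's mean over the 6 arrays, on the log2 scale of signal plus offset, for the 37 tested members grouped by role; red symbols are homozygous and blue symbols heterozygous arrays. Only Ccnd2 and Cdca8 show no overlap of the groups, in opposite directions, and homozygous 1 is the rightmost symbol for 17 genes.

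Probe sets of the same gene did not all lean the same way. There were 99 probe sets for the 39 genes, of which 69 were tested. Of these, 1 (Bub1b) was at an unadjusted limma p under 0.05, against 5.73% of all probe sets tested, and 2 lay higher and 1 lower without overlap, against 5.93% and 5.01%. Among the genes, 21 had more than 1 tested. For 8 of the 21 all differences had the same sign and for 13 they had both signs. The steadiest were Tpx2, Ccna2 and Cdc20, whose probe sets differed by at most 0.013 on the log2 scale, and the least steady Aurkb, by 0.32. An untested dim probe set of Cenpa read 35.9, 29.3 and 60.6 in homozygous and 129.7, 100.3 and 96.6 in heterozygous arrays, a difference of -0.88. It was chosen after its values were seen, and the brighter Cenpa probe set gave -0.08.

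**Figure D3:**
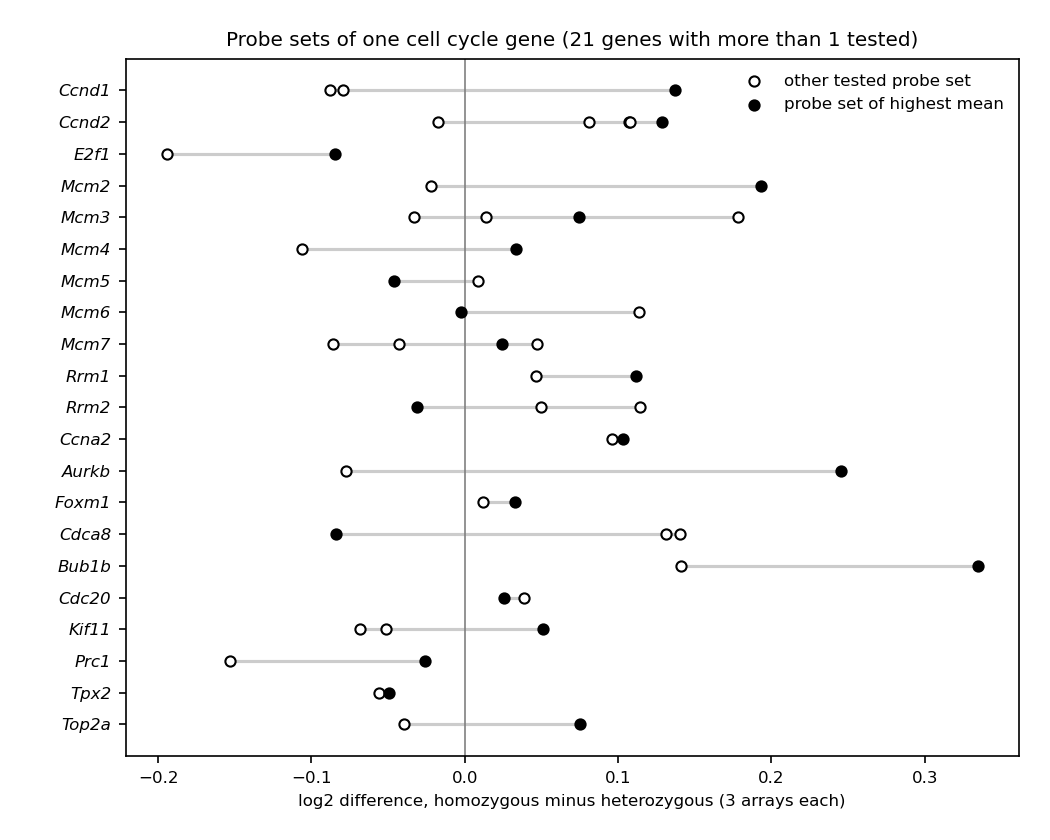
Log2 difference (homozygous minus heterozygous) of each tested probe set, for the 21 members with more than 1 tested probe set. For 13 of the 21 genes the points fall on both sides of 0.

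Values of the members also shared a pattern by array. Homozygous 1 held the highest value of 17 of the 37 members (45.9%) and the lowest of 0, where over all genes tested it held the highest for 14.8% and the lowest for 13.7%. Expressed as each gene's deviation from its mean over the 6 arrays, the median member lay 0.11 above in homozygous 1 on the log2 scale, 0.06 below in homozygous 3 and within 0.03 of the mean on the other 4. The count for homozygous 1 was also 17 after quantile normalization and 10 after a shift of the arrays to the same median. After that shift, homozygous 1 held the highest value of 1059 of all 11426 genes tested, and heterozygous 1 of 4037. Over all tested probe sets of the members, homozygous 1 was highest for 30 of 69. Without homozygous 1, 19 members lay higher and 18 lower in homozygous arrays, and the median difference was 0.0016. Leaving out homozygous 3, the array with the lowest member median, moved it the other way, with 29 higher and 8 lower and a median of 0.08.

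The array pattern differed by role. In homozygous 1 the median deviation was 0.13 for replication genes, with 6 of 9 at their highest there (Mcm3, Mcm4, Mcm6, Pcna, Rrm1 and Rrm2), and 0.14 for mitotic cyclins and kinases, with 5 of 7. For kinetochore and spindle genes it was 0.09 in homozygous 1 and higher, 0.16, in heterozygous 3, which held the highest value of 5 of the 9. Their lowest medians were -0.13 in the library labelled heterozygous 1 and -0.10 in homozygous 3. Mki67 and Top2a were also lowest in the library labelled heterozygous 1, at -0.20. The ranking of arrays turned in part with scaling. After a shift of the arrays to the same median, replication genes stood at 0.10 in homozygous 1 (3 of 9 highest) and 0.11 in heterozygous 1 (4 of 9). All genes tested then stood at -0.02 in homozygous 1 and 0.08 in heterozygous 1. They stood at -0.01 in homozygous 3, 0.06 in heterozygous 2 and -0.07 in heterozygous 3. Mitotic cyclins and kinases were then highest in homozygous 1 for 3 of 7, as in heterozygous 2, with the median still highest in homozygous 1, at 0.12. Kinetochore and spindle genes remained highest in heterozygous 3, at 0.11, but were lowest in homozygous 3, at -0.11, with -0.06 in heterozygous 1. With quantile normalization the array of highest median was the same as without it for each of these 3 roles. No test of these differences between roles was made.

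**Figure D4:**
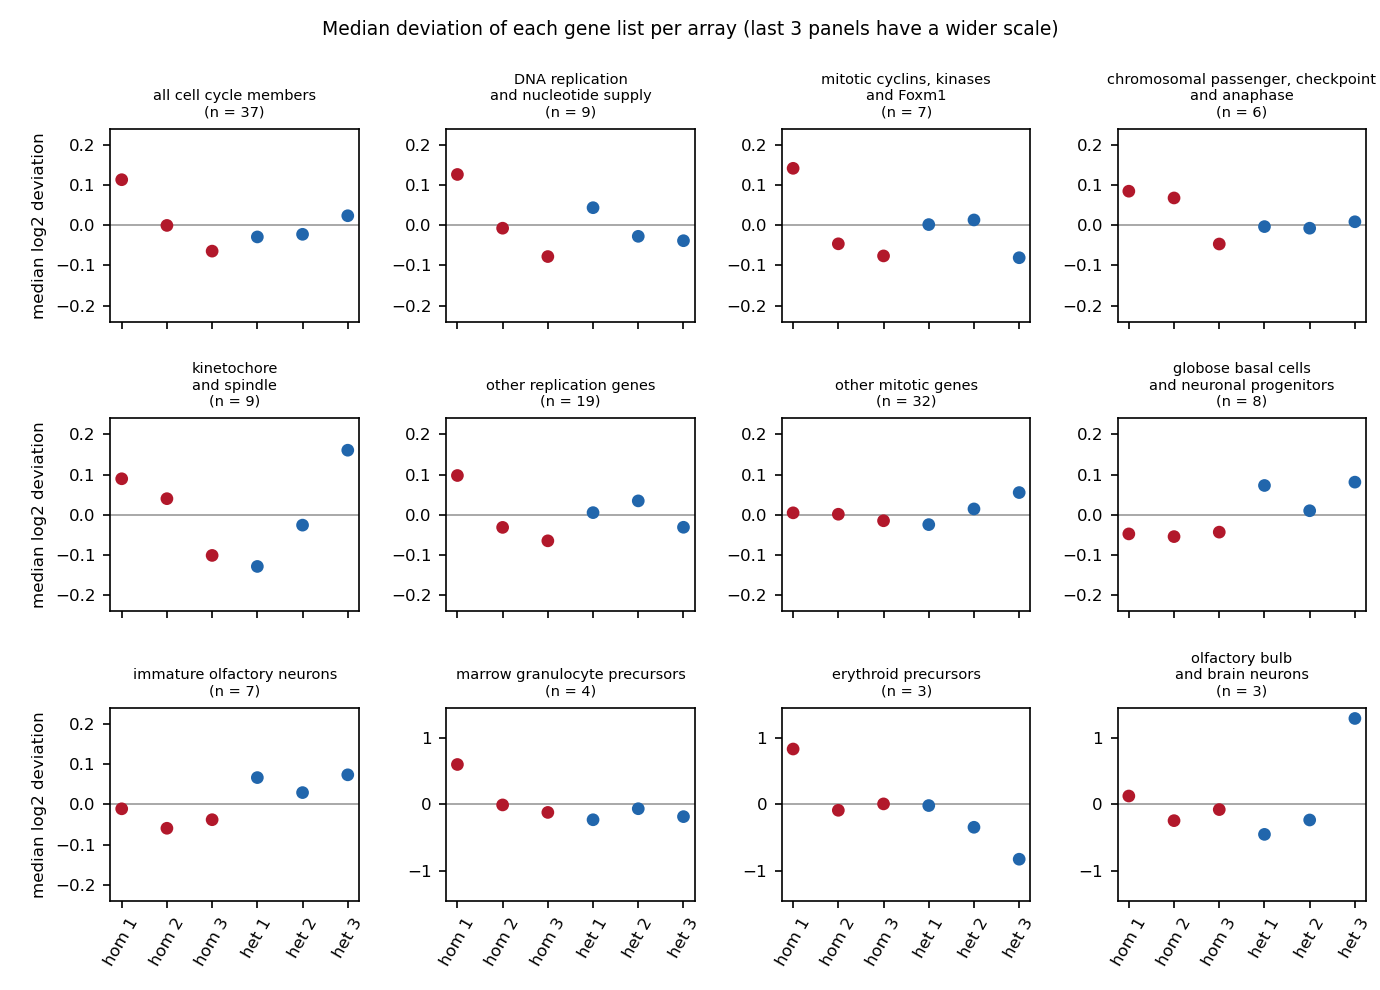
Median log2 deviation of the genes of a list from their own means over the 6 arrays, by array (hom, homozygous; het, heterozygous), for the 37 members, 4 of their roles, 2 further cell cycle lists and 5 marker lists, each with its number of tested genes; the marrow, erythroid and brain neuron panels have a wider scale. In these values, without further scaling, replication and mitotic kinase genes stand highest in homozygous 1, and kinetochore and spindle genes in heterozygous 3. With arrays at the same median, replication genes are at 0.10 in homozygous 1 and 0.11 in heterozygous 1. All genes tested are then at -0.02 in homozygous 1 and 0.08 in heterozygous 1. The marrow panel includes Camp, which passed the filter only through homozygous 1.

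Some markers of blood cells and of their precursors, which also divide, were high on the same array. The summed signal of 6 erythroid precursor markers was 5787 in homozygous 1, of which Tfrc gave 3582.6, and 3070 to 4387 on the other 5. That of 5 lymphocyte markers, all too dim to be tested, was 315 against 121 to 198. Slc4a1, the red cell anion exchanger, read 945 in homozygous 1 against 136.0 to 288.8, Hemgn 365.2 against 63.5 to 102.6, and Mpo, a granule enzyme of marrow myeloid cells, 229.9 against 76.6 to 86.8. Of 7 marrow granulocyte markers, 5 were highest in homozygous 1. The median deviation over all 7 was 0.42 there and -0.13 in homozygous 3, and over the 4 tested 0.60 and -0.12. Of the 4, Camp read 339.5 in homozygous 1 against 92.5 to 169.7 and passed the filter only through that array. Not every marker followed: Elane read 73.7 in homozygous 1 within a range of 49.4 to 84.5, Ltf was highest in homozygous 3, at 8209.6 against 5625.3 in homozygous 1, and the erythroid marker Tfrc was highest in heterozygous 3, at 3923.8. The part of these cells in the members' values was not tested. Heterozygous 3 stood apart in markers of brain neurons, with a sum over 7 genes of 2074 against 757 to 1114. Rbfox3 (791.1 against 49.5 to 184.2) and Cplx1 (738.2 against 140.0 to 307.7) carried it, while Eomes was lowest there, at 205.2. The summed signal of 7 mature olfactory neuron markers was also lowest in heterozygous 3, at 46016 against 53760 to 59433. Omp did not follow, at 8318.5 there. The library labelled heterozygous 1 stood apart at Mbp, a myelin gene, which read 7268.5 against 655.2 to 1037.9. The other glial markers were not high there as a list: Sox10, at 444.6, lay below homozygous 3, at 505.1, S100b read 425.7 against 418.2 in homozygous 3, and Fabp7 was lowest there, at 6290.3. Their part in the kinetochore and spindle values was not tested either.

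The labels themselves were checked at Omp. At its dimmer probe set the homozygous arrays read 5.7 to 31.3, heterozygous 2 and 3 read 4663.8 and 9143, and the library labelled heterozygous 1 read 26.3. The other Omp probe set read 7918.5 to 8774.4 on all 6 arrays, and where either lies relative to the replaced sequence is not given here. Without the library labelled heterozygous 1, 24 members lay higher and 13 lower with a median of 0.04, and 0 passed adjustment. Median signal per array was 147.9 to 163.7, and the ratio of 3-prime to 5-prime control signal was 0.70 to 0.75 for Gapdh and 1.28 to 1.32 for actin.

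Brakes on the cycle were read beside the members. Of 14 tested Cdk inhibitors, pocket proteins and antiproliferative genes, 4 lay higher and 10 lower in homozygous arrays, with a median of -0.05, and 0 passed adjustment in limma. At an unadjusted limma p under 0.05 there were 0 higher and 2 lower, against 2.6% and 2.56% of all genes tested. Ccng2, a cyclin that slows the cycle, read 1255.2, 1364.6 and 1266.2 in homozygous and 1340.1, 1771 and 2199.4 in heterozygous arrays. Only the library labelled heterozygous 1 lay within the homozygous range, and the log2 difference was -0.41 ± 0.14 (SE, n = 3 each; limma adjusted p = 0.951).

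Cdkn1b, which encodes the Cdk inhibitor p27, read 1948.4, 2005 and 1945.2 in homozygous and 2086.9, 2146.6 and 2605.2 in heterozygous arrays. The groups did not overlap, and heterozygous 3 was highest, as for Ccng2. The difference was -0.20 ± 0.09 (SE, n = 3 each; limma adjusted p = 0.951). Btg1 and Gas1, the brightest genes of the list, differed by -0.10 and -0.04.

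Further genes of the cycle showed no passing difference. Of 18 other G1 and E2f regulators, 10 lay higher and 8 lower, and Cdk2, the partner of E cyclins, read 513, 428.7 and 418.2 against 569.6, 524.4 and 595.5. Its groups did not overlap, with a difference of -0.29 ± 0.11 (SE, n = 3 each; limma adjusted p = 0.951). Ccne2 and E2f7, a repressor of the E2f family, leaned the same way, at -0.17 and -0.20. Others leaned higher, among them E2f2 at 0.26, E2f8 at 0.15 and Ccnd3 at 0.10. Of 19 other replication genes, 8 lay higher and 11 lower, with 0 at an unadjusted limma p under 0.05, and homozygous 1 was highest for 8 of them, with Tk1, thymidine kinase, at 543.3 against 316.7 to 445.9. Of 32 other mitotic genes, 10 lay higher and 22 lower, with a median of -0.02 and 0 at an unadjusted limma p under 0.05. This was opposite in sign to the members' median of 0.04, and homozygous 1 did not stand out for them, with a median deviation of 0.0049.

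The basal cells were read through their own markers. Horizontal basal cell markers were present, with Krt5 at 661.9 to 791.9 and Trp63 at 417.2 to 571.3, and of 4 tested, 2 lay higher and 2 lower. Of 8 tested markers of globose basal cells and neuronal progenitors, 2 lay higher and 6 lower in homozygous arrays, with a median of -0.12. In limma 0 passed adjustment, and at an unadjusted p under 0.05 there were 0 higher and 2 lower, Insm1 and Nhlh1. Over all genes tested 2.6% were higher and 2.56% lower at that threshold. Neurog1, a proneural factor, read 962.7, 881.6 and 917 against 963.5, 1027.9 and 1124.5. By array, the median deviation of this list was -0.05, -0.05 and -0.04 in homozygous and 0.07, 0.01 and 0.08 in heterozygous arrays, whereas that of the cell cycle members was 0.11, -0.0005 and -0.06 against -0.03, -0.02 and 0.02. On tested genes the progenitor list thus lay lower on every homozygous array and the cell cycle genes did not. The difference between the lists was not tested. Over all 9 named genes of the progenitor list, homozygous 1, at -0.0198, lay only just below heterozygous 2, at -0.0184. Markers of immature olfactory neurons lay as the progenitor list did: 0 of 7 were higher and 7 lower, with a median of -0.09. Of these, 3 were lower without overlap, against 5.51% of all genes tested. Markers of some other cells lay the other way. Of 3 tested endothelial markers, Kdr (0.44) and Pecam1 (0.26) were higher without overlap, against 4.82% of all genes tested. Vwf (0.39) was as well, but it passed the filter only through its homozygous values. It averaged 139.03 in heterozygous arrays, under the filter signal of about 154.6. The untested Cdh5 and Tek were higher with overlap. Of 6 macrophage markers 5 were higher (median 0.17), 3 of them at an unadjusted limma p under 0.05, against 2.6% of all genes. Of 7 mature olfactory neuron markers 5 were higher and 2 lower (median 0.05). Sustentacular markers were divided, 2 higher and 2 lower (median 0.0047), and glial markers were 1 higher and 3 lower (median -0.12). None of these markers passed adjustment in limma. These arrays read whole tissue, so they do not show which cells the members' signal came from.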

How the data were processed

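The deposited intensity values are linear MAS5 signals, as the submitters' processing notes state, with no version or settings in the sources used here. Their 2% trimmed mean was 500 on every array, so no scaling was added. The scale was log2(deposited value + 38.8), with the pooled 25th percentile as offset. Probe sets with a mean log2 of at least 7.6, the median of all 45101, were tested. Annotation names 1 gene for 34945 probe sets other than 64 controls, several for 932 and none for 9211. Each gene took its probe set of highest mean, picked again under each alternative that kept 1 probe set per gene. Groups were compared with limma 3.58.1 (R 4.3.3; lmFit, eBayes with trend, two-sided, Benjamini-Hochberg over 11426 genes or 22514 probe sets, threshold 0.05; 4 residual and 6.956 prior degrees of freedom), which was tested on simulated data. No 2 arrays shared more than 101 identical values. The members and lists were chosen with earlier results of these data known. Array values are given for members at an unadjusted p under 0.05, without overlap, or differing by at least 0.3, for Mki67, Top2a, Cdk1, Ccnd1 and Pcna, and for others singled out after their values were seen. From other lists, the 2 genes of lowest p and 2 of highest mean could be named, and others named were chosen after their values were seen. Alternatives covered the offset, scaling, filter, variance model, replicate block, probe sets and arrays used.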

Additional observations from a re-analysis of the deposited data

How the results depend on the processing

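The count of members passing adjustment was 0 under every alternative run, and the lowest member adjusted p from limma was 0.606, without heterozygous 3. Over all genes the count was 0 except for 1 without the library labelled heterozygous 1, a range of 0 to 1 over arrays left out in turn, and 8 with heterozygous 1 and 3 both left out. For probe sets it was 1 with the pooled-median offset, 0 to 25 over arrays left out and 27 with heterozygous 1 and 3 both left out. The 1 member higher at an unadjusted limma p, Bub1b, gave way to 0 with quantile normalization, a shift to a common median, no filter, a filter at the 75th percentile, eBayes without trend, a plain pooled-variance test, and heterozygous 1 and 3 both left out. Over arrays left out in turn this count was 0 to 3: Aurkb, Bub1b and Cenpe without homozygous 3, Mcm2, Cenpf and Mki67 without heterozygous 3, Mcm2 without homozygous 2, Ccnd1 without the library labelled heterozygous 1, Bub1b without heterozygous 2 and 0 without homozygous 1. With every probe set of a gene averaged, which left 29 members, Ccnd1 was at -0.0101 and Cdca8 at 0.0624, the only members whose sign turned from a difference larger than its SE under any alternative. Counting smaller differences too, 0 to 9 members changed sign per alternative. Under a shift to a common median all genes moved to a median of -0.04 and the members to -0.0012, with 18 higher and 19 lower. Replicate numbers did not pair the arrays (correlations of same-numbered deviations 0.011, -0.107 and -0.087), and with a replicate block 0 genes and 0 members passed and 1 member was higher at an unadjusted p. The causes of these changes were not tested. With 3 arrays a group, differences within the intervals given were not detectable.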
